A study of Mus musculus with 18 samples.

Results

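The ADAM, ADAMTS and ADAMTS-like genes were followed in wild type mouse embryonic fibroblasts (MEFs) over 1 day after a dexamethasone pulse. Members were every gene whose symbol in the platform annotation is Adam, Adamts or Adamtsl followed by a number, with at most 1 letter after the number of an Adam gene. A probe set was used only where it carried a single symbol, and the brightest one on average stood for a gene with several. This gave 57 of the 19938 genes measured, namely 34 ADAM genes, 18 ADAMTS genes and 5 ADAMTS-like genes. Adamts2 was not analysed here. The symbols and the mean level over all arrays chose the members and their probe sets, so mean levels are given below as a description only.

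ADAM proteins are membrane-anchored metalloproteases that clip growth factors, receptors and adhesion molecules off the cell surface, a step called shedding, although several of them have lost the protease site and act in cell adhesion instead. ADAMTS proteins are their secreted relatives, which carry thrombospondin repeats and cut matrix molecules such as aggrecan, versican, procollagens and parts of fibrillin microfibrils. ADAMTS-like proteins keep the repeats without the protease domain and bind matrix. In fibroblasts these genes are known for matrix turnover and for the release of ligands of the EGF receptor.

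The fibroblasts came from C57BL/6 embryos at embryonic day 13, from 2 mice, with head and liver left out, and per the labels from a colony that also gave Bmal1-/- siblings. Every sample had the same wild type genotype and was exposed to 100 nM dexamethasone for 2 h. Dexamethasone is a synthetic glucocorticoid used to bring the circadian clocks of cultured cells into phase, and there was no group without it. Total RNA was put on 1 Affymetrix expression array per sample at 22, 26, 30, 34, 40 and 46 h, with 3 samples a time that the labels call biological replicates. Nothing says whether these were separate cultures, and p-values here rest on the spread within a time, which may be technical.

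The 18 arrays had median intensities of 196 to 210, and precision is limited by how many arrays there were. Values below are log2(intensity + 16) after quantile normalization, a scale on which folds of dim probe sets are understated, and a level is read between times for a gene, not between genes. Of 10 fibroblast markers, Col1a1, Col1a2, Vim and Dcn were bright (means of 12.94 to 13.31), while Thy1 (7.31) and Fap (5.97) were no brighter than markers of cells that should be rare here. The 59 measured markers of 8 other cell types had a median of 7.03 and a 90th percentile of 8.19, and the latter served as a rough divide between bright and dim probe sets.

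Promoter sequence was looked at for the members whose levels the results turn on, because the clock proteins CLOCK and BMAL1 bind the E-box (CACGTG). The windows below are the 250 bases before the most upstream RefSeq start of each gene (build GRCm38.p6), written 5′ to 3′ along the gene in lower case, with the E-box in capitals. The first 3 are the rising members with an E-box in this window, Adamtsl3 had the largest 24 h cosine, and Adamts12 and Adamts9 rose among the most.
Adam10, chr9:70678732-70678981, plus strand: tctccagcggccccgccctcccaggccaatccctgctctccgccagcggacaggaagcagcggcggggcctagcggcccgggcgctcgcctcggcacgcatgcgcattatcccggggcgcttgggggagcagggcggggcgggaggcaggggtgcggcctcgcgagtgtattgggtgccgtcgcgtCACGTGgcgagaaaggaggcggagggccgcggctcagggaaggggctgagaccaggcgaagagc
Adam19, chr11:46054252-46054501, plus strand: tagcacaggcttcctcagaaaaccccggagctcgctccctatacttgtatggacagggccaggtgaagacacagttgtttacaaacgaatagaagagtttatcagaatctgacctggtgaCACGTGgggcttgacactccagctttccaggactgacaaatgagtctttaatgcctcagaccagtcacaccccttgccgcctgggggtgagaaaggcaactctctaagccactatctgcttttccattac
Adamts17, chr7:66839485-66839734, plus strand: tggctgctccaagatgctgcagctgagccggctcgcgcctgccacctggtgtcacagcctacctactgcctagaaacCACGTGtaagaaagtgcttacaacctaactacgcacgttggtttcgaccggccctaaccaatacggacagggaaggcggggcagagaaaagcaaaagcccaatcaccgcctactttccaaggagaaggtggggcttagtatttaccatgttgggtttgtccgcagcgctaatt
Adamtsl3, chr7:82335444-82335693, plus strand: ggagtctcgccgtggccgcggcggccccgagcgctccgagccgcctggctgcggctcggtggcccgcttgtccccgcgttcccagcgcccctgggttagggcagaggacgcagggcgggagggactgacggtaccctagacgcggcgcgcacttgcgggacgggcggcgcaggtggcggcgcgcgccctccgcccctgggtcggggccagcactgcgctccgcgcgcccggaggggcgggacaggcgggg
Adamts12, chr15:11064523-11064772, plus strand: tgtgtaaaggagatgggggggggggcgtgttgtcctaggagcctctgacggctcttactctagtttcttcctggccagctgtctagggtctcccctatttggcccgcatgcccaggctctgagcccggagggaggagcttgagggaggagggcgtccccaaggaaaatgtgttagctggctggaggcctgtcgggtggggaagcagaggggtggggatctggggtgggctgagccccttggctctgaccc
Adamts9, chr6:92943535-92943784, minus strand: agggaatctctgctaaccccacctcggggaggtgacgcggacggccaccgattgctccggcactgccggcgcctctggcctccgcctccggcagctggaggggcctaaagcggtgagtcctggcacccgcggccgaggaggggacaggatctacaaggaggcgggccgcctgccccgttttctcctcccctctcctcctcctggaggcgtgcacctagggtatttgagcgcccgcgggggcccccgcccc

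The E-box begins 64 bases before the start in Adam10, 130 bases before it in Adam19 and 173 bases before it in Adamts17, whereas the windows of Adamtsl3, Adamts12 and Adamts9 hold none. RefSeq windows were at hand for 31 of the 57 members, and 4 of them held an E-box, the other one being Adam6a, against 6.04% of the windows of 27025 genes. Among the 11 rising members with a window, 3 held an E-box. Of those, Adam10 and Adam19 had no 24 h cosine past the threshold (adjusted p of 0.515 and 0.278, limma), while Adamts17 did. The D-box (TTATGTAA or TTACGTAA) was in 0 of 31 windows and 0.962% of all, and the paired glucocorticoid receptor half-sites (ACANNNTGT) were in 0 of 31 and 5.88% of all. The AP-1 site (TGANTCA) was in 3 windows, of Adam20, Adam25 and Adam29, and in 6.85% of all. All motifs were searched on both strands, and no member's window held more than 1 kind of them. A match is a description and not a binding site. Base composition differed widely. The median GC content was 65.6% in the 11 windows of members that rose, 38.0% in the 11 windows of testis and epididymis ADAM genes and 52.0% over all genes.

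Over the 6 times, 21 of the 57 members changed by limma's F test, with p-values adjusted over all 19938 genes, beside 19.8% of all genes. Between 22 h and 46 h, 18 members rose and 3 fell, while 11.5% of all genes rose and 9.73% fell. These times are 24 h apart, which is the same phase only for a rhythm of 24 h. The period of the cultures was not measured here. Most of the rises were in secreted proteases: 12 of 18 ADAMTS genes rose and 0 fell, compared with 5 rises and 2 falls among 34 ADAM genes and 1 rise and 1 fall among 5 ADAMTS-like genes. The median change was 0.32 for ADAMTS genes, 0.04 for ADAM genes, 0.09 over all members and 0.03 over all genes. No rise reached 2-fold on this scale, the range being 0.20 to 0.93. In the 21 members called, the 3 arrays at 22 h and the 3 at 46 h did not overlap, which a call on these same arrays makes likely. The same held for Adam28, Adam22, Adam1a, Adamts19 and Adamts16, which were not called between these times. The share over all genes was not counted. The count of rises over all genes, 2295, was 1351 without 22 h replicate 1, 1481 without 22 h replicate 3 and 1471 without 46 h replicate 2, and with any 1 array left out 16 to 18 members rose.

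Most calls were on bright probe sets. Of the 18 members with a mean at or above 8.19, 16 rose and 1 fell, and they were 11 of the 18 ADAMTS genes, all of which rose, 5 of the 34 ADAM genes, of which 4 rose and 1 fell, and 2 ADAMTS-like genes, of which 1 rose. The ADAMTS and ADAM classes thus differed in brightness as well as in calls. For comparison, among the 9620 genes at least as bright 15.7% rose and 14.3% fell. Of the 39 dimmer members, 2 rose and 2 fell, while 7.58% of the 10318 dimmer genes rose and 5.42% fell, so the dim members were called about as often as dim genes at large. The rise was more than 50% complete by 34 h in 16 of the 18 risers, with a median of 65.6% of the change done by then. The mean was lowest at 22 h in 17 of them and highest at 46 h in 9, at 40 h in 8 and at 34 h in Adamtsl4.

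**Figure D1:**
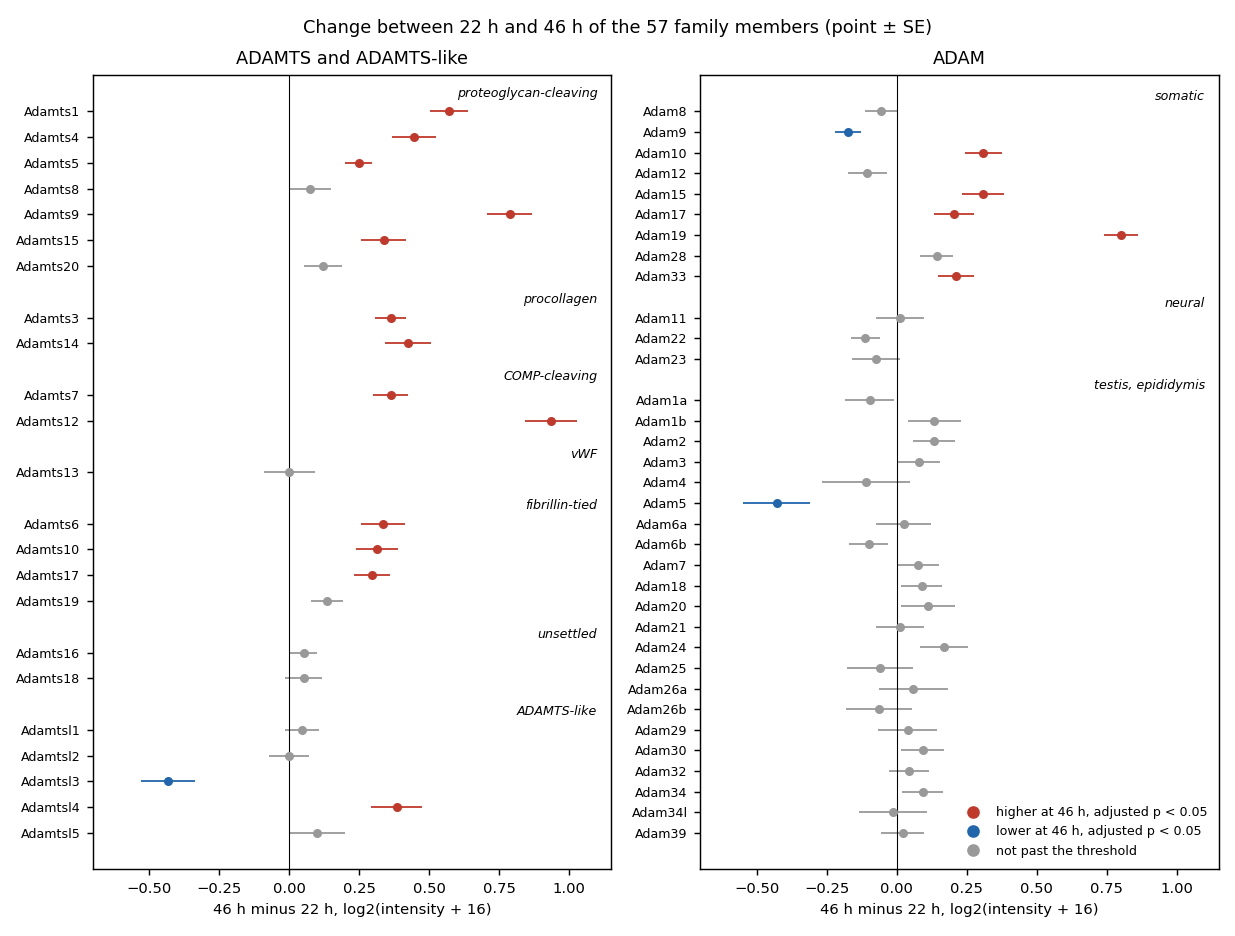
Change from 22 h to 46 h on the log2(intensity + 16) scale for the 57 members, grouped by role, each point with its standard error; red points rose and blue points fell at an adjusted p under 0.05 (limma), and grey points did not pass. The 12 red ADAMTS points lie between 0.25 and 0.93, and most testis and epididymis ADAM genes lie near 0.

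Among the 9 ADAM genes of somatic tissues, 5 rose, 1 fell and 3 did not pass, with a median change of 0.20. Adam19 (probe set 10375402), a protease that can shed neuregulins and is needed for heart development, led them. Its arrays read 10.24, 10.45 and 10.34 at 22 h, 10.49, 10.69 and 10.56 at 26 h, 10.66, 10.66 and 10.71 at 30 h, 10.77, 10.76 and 10.79 at 34 h, 11.09, 11.02 and 10.99 at 40 h, followed by 11.15, 11.11 and 11.17 at 46 h. Every array from 40 h on was above every earlier one, and all later arrays were above the 3 at 22 h. The change was 0.80 ± 0.06 (SE), or 1.74-fold (adjusted p = 3.30e-08, limma), the smallest adjusted p of any member.

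Adam10 and Adam17 encode the main sheddases of Notch receptors and of TNF and EGF family ligands. Adam10 (probe set 10586844) read 10.79, 10.80 and 10.87 at 22 h and 11.20, 11.02 and 11.17 at 46 h, a rise of 0.31 ± 0.07 (adjusted p = 0.00253, limma). The arrays in between filled the gap, from 10.83 to 11.12. Adam17 (probe set 10399605) read 10.39, 10.31 and 10.43 at 22 h and 10.64, 10.52 and 10.59 at 46 h, and its rise of 0.20 ± 0.07 only just passed (adjusted p = 0.0481, limma). The Adam17 call was lost in 14 of 18 fits that each left out 1 array (adjusted p of 0.0556 to 0.146 in those 14), and its F test was not past the threshold (adjusted p = 0.124).

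Adam15, which binds integrins through its disintegrin domain, rose early. It read 10.07, 10.34 and 10.17 at 22 h, all below the 3 arrays of 26 h (10.39, 10.39 and 10.47), and 10.44, 10.59 and 10.47 at 46 h. That is 0.31 ± 0.08 from 22 h to 46 h (adjusted p = 0.00714, limma), with 99.9% of the change present at 34 h. Adam33, known from mesenchymal cells of the airway, was dimmer and read 7.53, 7.66 and 7.64 at 22 h and 7.84, 7.87 and 7.76 at 46 h, a rise of 0.21 ± 0.06 (adjusted p = 0.0245, limma). The Adam33 call did not hold in 4 of the 18 fits with 1 array left out, those without 22 h replicate 1 or 3 or without 46 h replicate 1 or 2 (adjusted p of 0.0515 to 0.118).

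Adam9, a widely expressed sheddase, ran the other way. Its arrays read 11.27, 11.32 and 11.38 at 22 h and 11.16, 11.18 and 11.12 at 46 h, and it fell by 0.17 (SE 0.05, adjusted p = 0.0136, limma). This small fall was not past the threshold without 22 h replicate 3 (adjusted p = 0.0761) or without 46 h replicate 3 (adjusted p = 0.0619), and it was larger, -0.27, where arrays were only set to a common median. Adam12, the meltrin alpha of muscle and mesenchyme, had a change of -0.10 ± 0.07. Adam8 and Adam28, better known from blood cells, had changes of -0.06 ± 0.06 and 0.14 ± 0.06, and these 3 did not pass.

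The 3 neural ADAM genes without a working protease site, Adam11, Adam22 and Adam23, had changes between -0.11 and 0.01 that did not pass. Adam22, the receptor of the secreted protein LGI1 at synapses, passed the F test alone (adjusted p = 0.0230, limma). Its mean was highest at 26 h (arrays of 7.56, 7.46 and 7.47). It was lowest at 40 h (7.30, 7.29 and 7.23) and 46 h (7.28, 7.26 and 7.28), which overlapped, and the means ranged over 0.23. With the values as deposited, without quantile normalization, that F test did not pass (adjusted p = 0.247).

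The 22 ADAM genes of testis and epididymis, which include the fertilin subunits Adam1a, Adam1b and Adam2 and the sperm protein gene Adam3, were dim, with means of 4.92 to 7.46. In 21 of them no test passed, and the median change over all 22 was 0.04. Adam5, the gene of a sperm surface protein, fell. Its arrays read 7.37, 7.56 and 7.65 at 22 h, 7.66, 7.79 and 7.61 at 26 h, 7.61, 7.52 and 7.86 at 30 h, 7.66, 7.70 and 7.50 at 34 h, 6.85, 7.39 and 7.30 at 40 h, followed by 7.21, 7.08 and 7.01 at 46 h. The level was thus flat up to 34 h and lower at the last 2 times, where only 1 of 6 arrays (7.39) exceeded the lowest at 22 h.

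From 22 h to 46 h Adam5 changed by -0.43 ± 0.12 (adjusted p = 0.0170, limma), and the F test passed as well (adjusted p = 0.00379). The call on 46 h against 22 h was lost without 22 h replicate 3, 46 h replicate 2 or 46 h replicate 3 (adjusted p of 0.0530 to 0.0827). On chromosome 8 the RefSeq gene order runs Adam18, Adam3, Adam5, Adam32, Adam9, so the 2 ADAM genes that fell stand close together with Adam32, which did not pass (0.04 ± 0.07), between them. Several genes of this group are near-identical copies of each other, such as Adam26a and Adam26b or Adam6a and Adam6b, and their probe sets may read more than 1 gene. Of 10 germ cell and sperm markers 2 rose and 8 did not pass, while 11.5% of all genes rose. Odf1 rose by 0.24 and Tnp2 by 0.20, the latter lost without 22 h replicate 1 and without 46 h replicate 2 or 3. The brightest of the 10, Dazl, had a change of 0.01. The summed intensity of the 10 markers was 1269 to 1428 at 22 h and 1450 to 1543 at 46 h. Its part in the values of these genes was not tested.

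**Figure D2:**
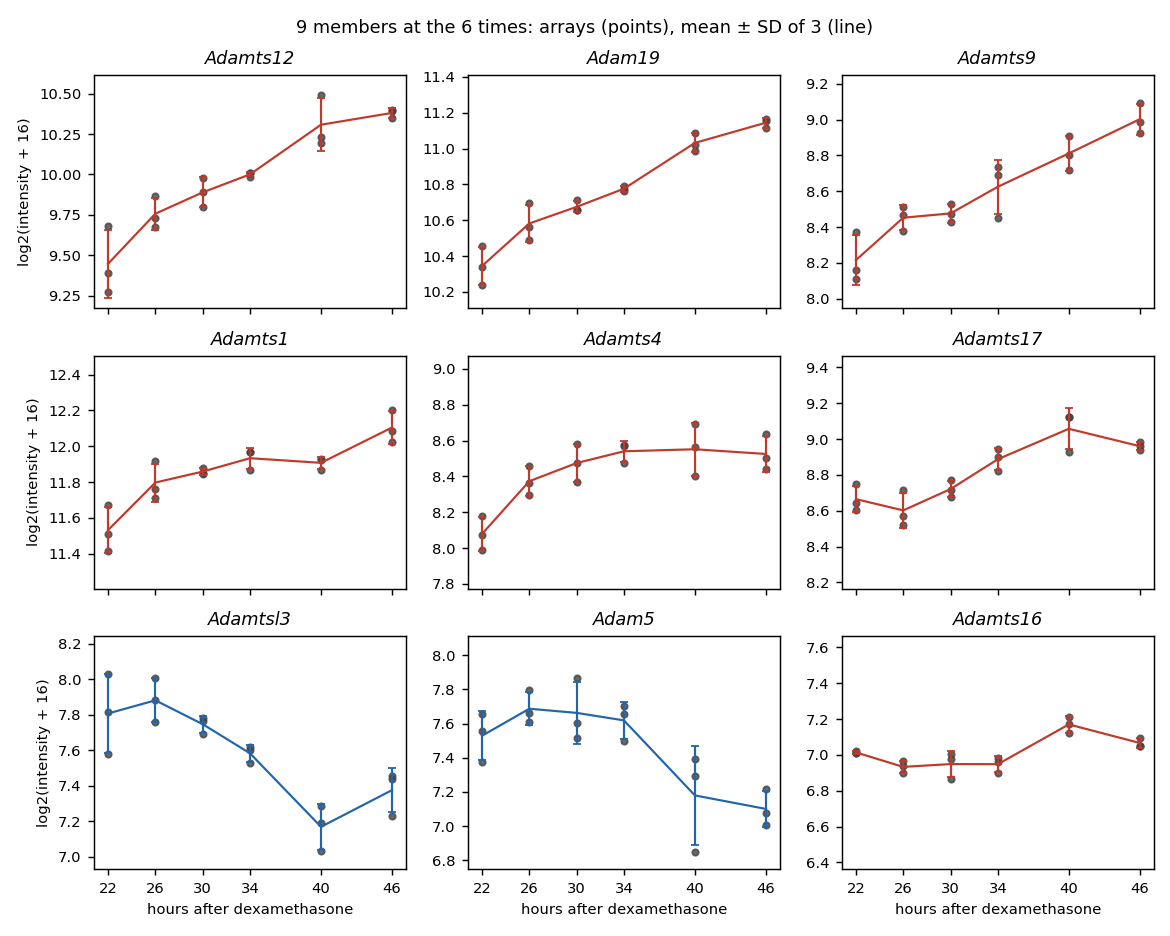
Levels of 9 members at the 6 times on the log2(intensity + 16) scale, with 1 point per array and a line through the means with SD bars (n = 3); red lines mark members that were not lower at 46 h and blue lines the 2 that were. Adamts12, Adam19 and Adamts9 climb through the day, Adamts4 climbs early, and Adamtsl3 and Adam5 are low at 40 h and 46 h.

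Of the 7 ADAMTS proteases that cut hyaluronan-binding proteoglycans, 5 rose, and their median change of 0.34 includes all 7. Adamts9 (probe set 10546430), which cleaves versican and acts in cell surface and cilium biology, read 8.11, 8.37 and 8.16 at 22 h, 8.51, 8.47 and 8.38 at 26 h, 8.53, 8.47 and 8.43 at 30 h, 8.69, 8.45 and 8.73 at 34 h, 8.80, 8.72 and 8.91 at 40 h, followed by 9.10, 8.99 and 8.92 at 46 h. The rise went on to the last time, where all arrays were above those of every earlier time. It came to 0.79 ± 0.08, or 1.73-fold (adjusted p = 1.93e-06, limma). All 6 of its probe sets rose, by 0.60 to 0.93.

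Adamts1 (probe set 10440522), a versican-cleaving protease needed in ovulation, read 11.42, 11.67 and 11.51 at 22 h and 12.08, 12.03 and 12.20 at 46 h. Its arrays at 26 h to 40 h lay between these sets, from 11.71 to 11.97. The rise was 0.57 ± 0.07, or 1.49-fold (adjusted p = 9.43e-06, limma), and 70.1% of it was present at 34 h. Adamts5, the main aggrecan-cleaving protease of mouse cartilage, is the next gene to Adamts1 on chromosome 16 and rose less. It read 10.80, 10.83 and 10.81 at 22 h and 11.07, 11.05 and 11.07 at 46 h, a rise of 0.25 ± 0.05 (adjusted p = 0.000980, limma). With arrays only set to a common median the rise was 0.15 (adjusted p = 0.0320) and the F test did not pass (adjusted p = 0.0655).

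Adamts4, the other classic aggrecanase, levelled off early. It read 8.07, 8.18 and 7.99 at 22 h, 8.46, 8.36 and 8.30 at 26 h, 8.48, 8.58 and 8.37 at 30 h, 8.47, 8.57 and 8.57 at 34 h, 8.69, 8.40 and 8.56 at 40 h, followed by 8.50, 8.63 and 8.44 at 46 h. The 3 arrays at 22 h were below all others, and those from 30 h on overlapped. The rise to 46 h was 0.45 ± 0.08, or 1.36-fold (adjusted p = 0.000538, limma), and 103% of it was there at 34 h.

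Adamts15, a versican-cleaving protease expressed in musculoskeletal tissue, was dim, at 6.45, 6.21 and 6.41 at 22 h and 6.74, 6.59 and 6.76 at 46 h. It rose by 0.34 ± 0.08 (adjusted p = 0.00555, limma), though on a level below the median of the markers of other cell types, and by 0.22 where 64 was added before the log. Adamts8, its neighbour on chromosome 9, and Adamts20, a relative of Adamts9 in melanoblast and palate development, had changes of 0.08 ± 0.07 and 0.12 ± 0.07 that did not pass.

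Both measured procollagen N-proteinases rose, with a median of 0.39. These enzymes trim the amino-terminal propeptide from fibrillar procollagens, and Adamts3 also processes the lymphatic growth factor VEGF-C. Adamts14 read 8.74, 9.05 and 8.94 at 22 h and 9.38, 9.42 and 9.20 at 46 h, a rise of 0.42 ± 0.08 (adjusted p = 0.00119, limma). Adamts3 read 8.44, 8.51 and 8.42 at 22 h and 8.79, 8.85 and 8.82 at 46 h, a rise of 0.36 ± 0.06 (adjusted p = 0.000142, limma). For Adamts3 the arrays at 26 h and 30 h (8.45 to 8.61) overlapped those at 22 h, and 65.2% of the change was present at 34 h. Only 3 of its 16 probe sets rose, 11 of the 16 were below a level of 7.03, and the mean over all its probe sets moved by 0.10 (adjusted p = 0.115, limma).

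Adamts7 and Adamts12 encode proteases that cut cartilage oligomeric matrix protein (COMP), and both rose, with a median of 0.65. Adamts12 (probe set 10423109) had the largest change of any member. Its arrays read 9.27, 9.68 and 9.39 at 22 h, 9.68, 9.87 and 9.73 at 26 h, 9.89, 9.80 and 9.98 at 30 h, 10.01, 9.99 and 10.01 at 34 h, 10.49, 10.23 and 10.20 at 40 h, followed by 10.39, 10.40 and 10.35 at 46 h. Arrays at 40 h and 46 h overlapped each other and lay above all earlier ones. The change was 0.93 ± 0.09, or 1.91-fold (adjusted p = 1.10e-06, limma). Adamts7, also tied to vascular smooth muscle migration, read 8.55, 8.79 and 8.68 at 22 h and 9.09, 8.98 and 9.03 at 46 h, a rise of 0.36 ± 0.06 (adjusted p = 0.000367, limma). Adamts13, the von Willebrand factor protease made mainly in liver, was dim at a mean of 6.92 and did not pass, with a change of 0.00 ± 0.09.

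Of the 4 ADAMTS genes tied to fibrillin microfibrils, the scaffold of elastic fibres, 3 rose and the median was 0.30. Adamts6 read 9.64, 9.59 and 9.53 at 22 h and 9.95, 9.85 and 9.96 at 46 h, a rise of 0.34 ± 0.08 (adjusted p = 0.00533, limma) that was lost where arrays were only set to a common median (adjusted p = 0.0588). Adamts10, mutated with FBN1 and ADAMTS17 in forms of Weill-Marchesani syndrome, read 9.96, 10.22 and 9.94 at 22 h and 10.35, 10.40 and 10.31 at 46 h, a rise of 0.31 ± 0.08 (adjusted p = 0.00617, limma). It was already as high at 26 h and 30 h as at 46 h on some arrays (10.42 at most) and lower again at 34 h (10.12 to 10.23). Adamts19, which acts in heart valves, had 0.14 ± 0.06 and did not pass.

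Adamts17 (probe set 10554061) read 8.64, 8.75 and 8.60 at 22 h, 8.71, 8.52 and 8.57 at 26 h, 8.68, 8.77 and 8.72 at 30 h, 8.82, 8.90 and 8.94 at 34 h, 9.12, 8.93 and 9.12 at 40 h, followed by 8.94, 8.98 and 8.96 at 46 h. It was low through 30 h, highest at 40 h and a little lower at 46 h. The rise from 22 h to 46 h was 0.30 ± 0.06 (adjusted p = 0.00305, limma) and the F test gave an adjusted p of 0.000260. Of its 5 probe sets 2 rose, and the mean over the 5 moved by 0.09 (adjusted p = 0.120, limma).

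**Figure D3:**
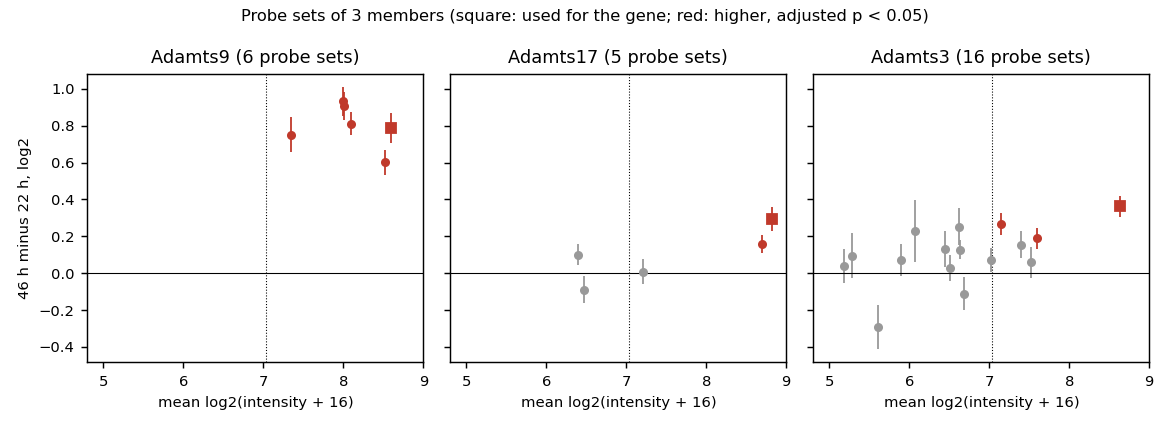
Change from 22 h to 46 h (± SE) of each probe set of Adamts9, Adamts17 and Adamts3 against its mean level, both on the log2(intensity + 16) scale; squares are the probe sets used for the gene, red marks rises at an adjusted p under 0.05, and the dotted line is the median level of markers of other cell types (7.03). All 6 probe sets of Adamts9 lie above 0.6, while of the 11 probe sets of Adamts3 below 7.03, 9 lie above 0 and 2 below, none past the threshold.

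Among the ADAMTS-like genes, Adamtsl4, which binds fibrillin-1 and is needed for the anchoring of the eye lens, rose by 0.38 ± 0.09 (adjusted p = 0.00519, limma). It read 8.74, 9.07 and 8.75 at 22 h and 9.14, 9.32 and 9.25 at 46 h, and stood highest at 34 h. Adamtsl3, also called punctin-2, fell. Its arrays read 8.03, 7.58 and 7.81 at 22 h, 7.88, 7.76 and 8.00 at 26 h, 7.69, 7.78 and 7.76 at 30 h, 7.53, 7.60 and 7.62 at 34 h, 7.03, 7.29 and 7.19 at 40 h, followed by 7.44, 7.23 and 7.46 at 46 h. All arrays at 40 h and 46 h were below all earlier ones, and 22 h spread the most. The change from 22 h to 46 h was -0.43 ± 0.10 (adjusted p = 0.00383, limma), and the range of its means, 0.71, ran from 26 h down to 40 h. Adamtsl5, at a mean of 9.71, had a change of 0.10 ± 0.10, and Adamtsl1 and Adamtsl2 had 0.05 ± 0.06 and 0.00 ± 0.07.

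A 24 h cosine passed in 3 members, Adamtsl3, Adamts17 and Adamts16, beside 0.828% of all genes. Amplitudes, the log2 distance from the fitted mean to the peak, were 0.34 ± 0.06 for Adamtsl3 with a peak at 27.6 h (adjusted p = 0.0333, limma), 0.22 ± 0.04 for Adamts17 with a peak at 39.1 h (adjusted p = 0.0374) and 0.12 ± 0.02 for Adamts16 with a peak at 40.9 h (adjusted p = 0.0412). Adamts16, a protease known from kidney and testis, read 7.01, 7.01 and 7.02 at 22 h, 6.97, 6.90 and 6.94 at 26 h, against 7.21, 7.12 and 7.17 at 40 h, and its change from 22 h to 46 h was 0.05 ± 0.05 (adjusted p = 0.480). Adamtsl3 and Adamts17 were at different levels at 22 h and 46 h, which a 24 h cosine cannot follow.

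None of the 3 cosines held in all fits with 1 array left out. Adamtsl3 lost its call in 8 of 18 (adjusted p up to 0.121), Adamts17 in 10 (up to 0.150) and Adamts16 in 12 (up to 0.148). The Adamts17 cosine rested on probe set 10554061, and none of its other probe sets passed. The next brightest, 10554057, had an adjusted p of 0.136 (limma), and the mean over its probe sets had 0.110. With a linear term in time beside the cosine, 0 members passed. The times span 1 cycle, so no repeat of a rhythm could be seen. Adam5, whose amplitude was 0.29 with a peak at 29.7 h, missed the threshold (adjusted p = 0.0743).

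The natural inhibitors of these proteases did not move as a block. Over all genes, 11.5% rose and 9.73% fell. Of 7 measured, Timp1 fell by 0.36 (SE 0.06, adjusted p = 0.000560, limma), while Timp2 rose by 0.23 ± 0.04 (adjusted p = 0.00118) and Reck, a membrane-anchored inhibitor that also restrains ADAM10, rose by 0.27 ± 0.06 (adjusted p = 0.00246). Timp3, the TIMP with the widest reach over ADAM and ADAMTS enzymes, had a change of 0.07 ± 0.04 (adjusted p = 0.241), which turned to -0.02 with a common array median. Timp4, A2m and Papln had changes of 0.11 to 0.12 that did not pass. Both rises were lost where arrays were only set to a common median.

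Genes for the maturation, trafficking and clearance of these proteins numbered 18 measured, of which 3 rose and 2 fell. That is 27.8% called, beside 21.2% of all genes and 30.1% of all genes at or above 8.19. The list was thus called about as often as genes at large. Tspan15, a tetraspanin that carries ADAM10 to the cell surface, fell by 0.45 (adjusted p = 0.000122, limma). Lrp1, the endocytic receptor that clears ADAMTS4 and ADAMTS5, rose by 0.22 (adjusted p = 0.00594), and Pofut2, which adds fucose to thrombospondin repeats, rose by 0.25 (adjusted p = 0.0127). Dpy19l1, of a family of C-mannosyltransferases, fell by 0.24 (adjusted p = 0.0109). The calls on Lrp1, Pofut2 and Dpy19l1 were each lost under at least 1 alternative. Without 22 h replicate 1 the list had 2 calls in place of 5, and without 46 h replicate 2 it had 3.

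The list of cell surface substrates of ADAM10 and ADAM17 also holds Egfr, the receptor of several shed ligands. Of its 27 measured genes, 4 rose and 6 fell, with a median change of 0.05. That is 14.8% and 22.2%, beside 11.5% and 9.73% of all genes. Egfr, counted among the 4 rises, rose by 0.51 ± 0.06 (adjusted p = 3.22e-06, limma), whereas the shed ligand Hbegf fell by 0.62 (SE 0.07, adjusted p = 3.32e-06). Nrg1, a ligand shed by several ADAM proteases, fell by 0.48 (adjusted p = 0.000186), and the hyaluronan receptor Cd44 fell by 0.42 (adjusted p = 0.000112).

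Lists of matrix genes were taken by the substrate they stand for, and are set beside all genes, of which 11.5% rose and 9.73% fell. Among all genes at or above 8.19, 15.7% rose and 14.3% fell. In the first 2 lists below, 8 of 13 and 9 of 11 genes were that bright. Among 13 procollagen genes and processing partners, 8 rose and 2 fell, with a median of 0.28, Col3a1 rising by 0.66, Col5a1 by 0.54, Col1a1 by 0.41 and Col5a2 by 0.39 (adjusted p from 1.03e-05 to 0.000531, limma). Of 11 fibrillin microfibril genes 6 rose and 1 fell, with a median of 0.26. Mfap2, a small microfibril protein, rose by 0.70 (adjusted p = 9.85e-05), Ltbp4 by 0.57 (adjusted p = 0.00110) and Fbn2 by 0.31 (adjusted p = 0.000629, and by 0.20 with a common array median), while Ltbp2 fell by 0.53 (adjusted p = 0.000121). Of 10 genes for hyaluronan-binding proteoglycans, hyaluronan synthases and COMP, 1 rose, 1 fell and 8 did not pass, with a median of 0.06. Dim levels were common, as 7 of the 10 had means below 7.03. Vcan, the gene of versican, rose by 0.17 ± 0.05 (adjusted p = 0.0136, limma). That call was lost in 4 alternatives, among them the fit without 46 h replicate 1. Has2, the main hyaluronan synthase of mesenchyme, fell by 0.95 (SE 0.11, adjusted p = 5.64e-06).

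**Figure D4:**
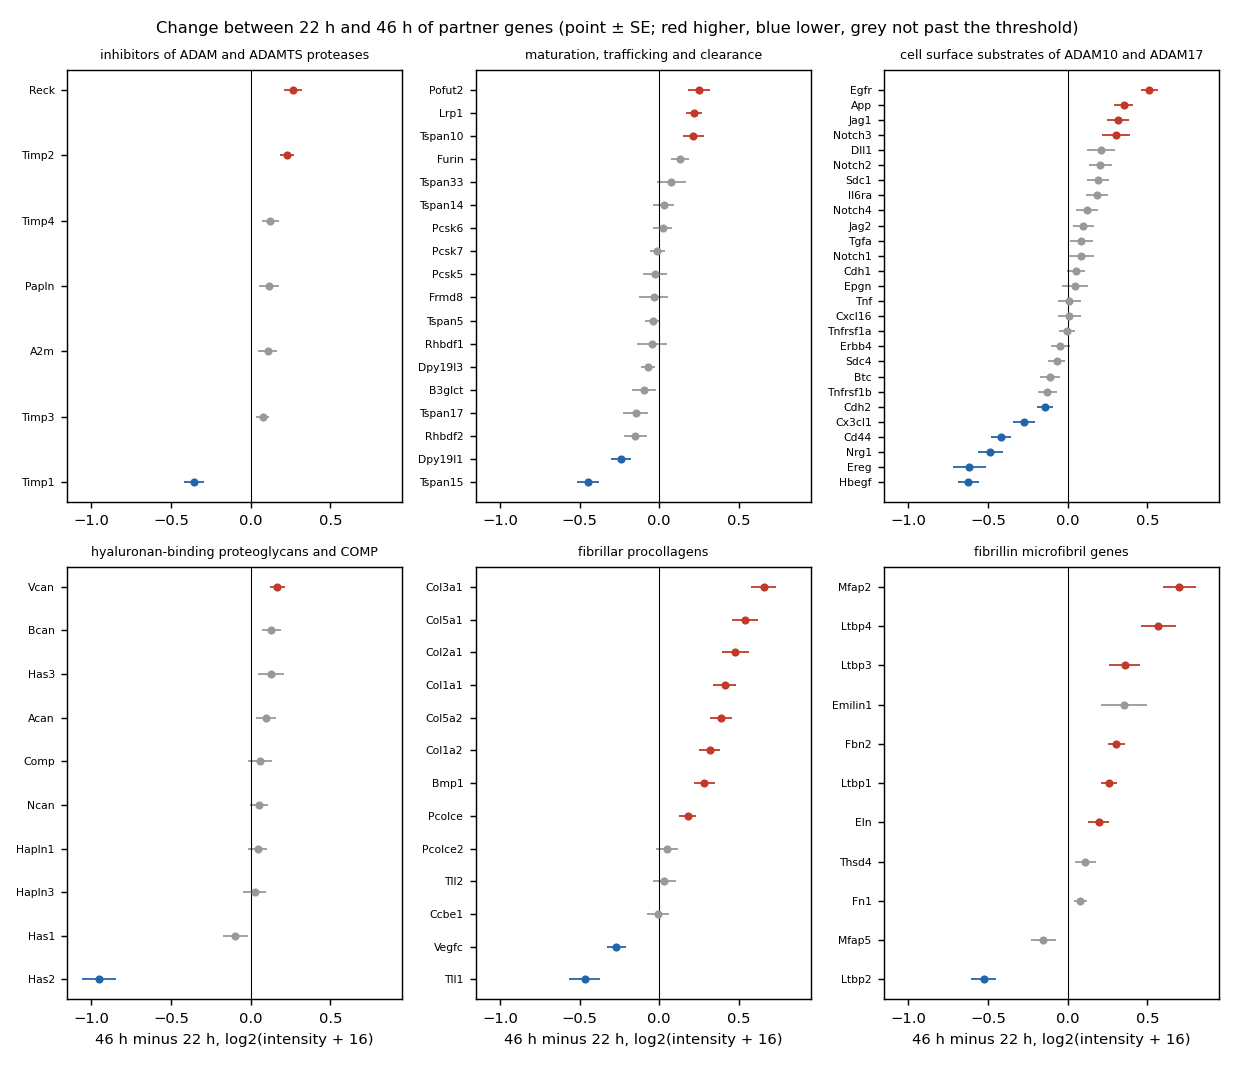
Change from 22 h to 46 h (± SE) on the log2(intensity + 16) scale for 6 lists of partner genes, with red for rises, blue for falls at an adjusted p under 0.05 (limma) and grey for genes that did not pass. Procollagen and fibrillin genes lie mostly to the right of 0, and the list of ADAM10 and ADAM17 substrates, which also holds Egfr, spreads to both sides.

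Some markers of cell types moved over the same interval, in which 11.5% of all genes rose and 9.73% fell. Fibroblast markers, 3 of which (Col1a1, Col1a2 and Col3a1) are also in the procollagen list, rose in 6 of 10 and fell in 0. Of these 10, 8 had means at or above 8.19, a level at which 15.7% of all genes rose. The summed intensity of the fibroblast markers was 44405 to 48513 at 22 h and 54201 to 55700 at 46 h. Of 59 markers of other cells 8 rose (13.6%), close to the share over all genes, and 2 fell (3.39%). The bone and cartilage sum was 1287 to 1344 at 22 h and 1525 to 1765 at 46 h, with Col2a1 rising by 0.48 and Col9a1 by 0.41. The skeletal muscle sum was 1448 to 1541 at 22 h and 1681 to 1756 at 46 h. Of the 7 muscle markers 2 rose, and the brightest, Acta1, did not pass (adjusted p = 0.0972, limma). Macrophage sums (1021 to 1058 at 22 h, 999 to 1043 at 46 h) and those of endothelium (566 to 596 and 570 to 611), epithelium (1095 to 1123 and 1096 to 1136) and neural cells (1065 to 1123 and 1051 to 1205) overlapped between these times. Those of adipocytes did not overlap, at 557 to 594 and 601 to 640. In a bulk sample fewer cells of a type and less RNA per cell cannot be told apart, and the part of these shifts in the members' changes was not tested.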

How the data were processed

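The authors deposited 1 intensity value per probe set and array on a linear scale. Affymetrix Expression Console 1.1 and PLIER 2.0 are named in the submitters' processing notes, with settings not given in the sources used here. Of 35556 probe sets, 21789 had 1 symbol in the platform annotation, 1621 had several and 12146 were unnamed; the 999 genes with several probe sets kept the brightest. All 57 members matched the RefSeq table by identifier.

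Array quartiles differed by 0.154 (lower) and 0.110 (upper) log2, so log2(intensity + 16) was quantile normalized. With R 4.3.3 and limma 3.58.1, means at 6 times were fitted to all 18 arrays, giving the F test and the contrast of 46 h with 22 h, and a separate fit gave the 24 h cosine. P-values were adjusted by Benjamini-Hochberg over 19938 genes, threshold 0.05. The code was tested on simulated data. Replicate numbers did not pair the samples, so no block was used. Over all genes, the largest shared pattern in the deviations from the time means (first principal component) held 33.8% of their variance. Members may share this variation between arrays, so their calls should not be read as separate results. Every member past a test was named, with, of the others, the 3 brightest and the 3 with the lowest F test p (Adam39, Adam2 and Adamts19, adjusted p of 0.124, 0.133 and 0.165); of partner lists, the inhibitors and up to 4 called genes with the smallest p were named. The members, roles and lists were chosen with earlier results of these data known, including the cosine of Adamtsl3, so nothing here is independent support for them. Alternatives covered normalization, the added constant, dim genes, probe sets, a replicate block, array weights, variance models, thresholds, cosine periods, a linear term and each array left out. The partner lists and the quoted marker genes were put through these after seeing the data.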

Additional observations from a re-analysis of the deposited data

How the results depend on the processing

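No called member, and no partner gene named as called, changed direction under the alternatives. Of the 21 members called between 22 h and 46 h, 14 kept the call in every alternative that tested them, and the count ran from 18 to 21 with 1 array left out (16 to 18 rises, 1 to 3 falls). Adam17, Adam33, Adam5, Adam9, Adamts6, Adamts3 and Adamts17 lost it somewhere, as given above, and the filter on dim genes removed Adamts15 and Adamts16. Setting arrays to a common median turned the split over all genes from 2295 rises and 1939 falls to 1848 and 3275, and values as deposited gave 3863 and 2180. The F test, which called 21 members, called 35 with array weights, when 54.0% of all genes passed, 12 at an adjusted p of 0.01, and 15 to 22 with 1 array left out. The cosine, which called 3, called 0 with a replicate block, 0 at an adjusted p of 0.01, 0 with a period of 22 h, 0 with a linear term and 7 with a period of 26 h, when 9.96% of all genes passed. With 1 array left out it called 0 to 4, and 0 without any 26 h array, 30 h replicate 2, 34 h replicate 2 or 40 h replicate 1 or 3, and 1 without 30 h replicate 1 or 3 or 34 h replicate 3. The cause was not tested. Deviations of arrays with the same replicate number correlated at -0.11 to -0.09 (medians), and 3 of 18 arrays correlated best with their own number; the replicate block gave 20 calls between 22 h and 46 h and 19 by the F test. Calls in the partner lists moved with array weights from 10 to 18 (substrates), 5 to 9 (maturation), 3 to 5 (inhibitors) and 2 to 4 (proteoglycans). Values as deposited gave 6 inhibitors, and a common median 1 inhibitor and 1 proteoglycan gene. At an adjusted p of 0.01 there were 2 maturation genes and 1 proteoglycan gene. Dim probe sets limit what can be seen of the 39 members below 8.19.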
